A study of Homo sapiens with 4 samples.

Results

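The S100 and annexin genes of T24 cells were compared between cells carrying a control vector and cells expressing TET1-CD. Members were taken by gene symbol alone, namely the S100A genes, S100B, S100P, S100Z, S100G, S100PBP and the genes named ANXA with a number. The symbols gave 33 of the 57879 genes listed, of which 20 were S100 genes, 12 were annexin genes and 1 was S100PBP, the gene of a nuclear protein named for its binding to S100P. T24 is an established human cell line from a transitional cell carcinoma of the bladder. RNA-seq with selection of poly(A) RNA was done on 4 libraries, 2 from control and 2 from TET1-CD cells, all grown in RPMI with serum and all labelled by the same source name, T24_induced. TET1-CD is the catalytic domain of TET1, the dioxygenase that turns 5-methylcytosine of DNA into 5-hydroxymethylcytosine. Per the study's methods, both lines were made stable with a lentiviral pCDH-3×FLAG vector and puromycin, so each group is a selected line and both groups carry a vector. The sources used here do not say whether the libraries of a group came from separate cultures, so p-values measure the spread between these libraries, which may be technical.

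S100 proteins are small proteins with a pair of EF-hands, the helix-loop-helix motif that holds calcium, and most of them work as dimers. Calcium opens a cleft on the dimer through which it binds target proteins, and several S100 proteins are also released from cells, where RAGE (AGER) and TLR4 serve as receptors. Annexins bind acidic phospholipids in the presence of calcium through a core of repeats and take part in membrane traffic, repair and the link between membranes and actin. The families meet in fixed pairs, such as S100A10 with ANXA2, S100A11 with ANXA1 and S100A6 with ANXA11. In epithelial tumours S100A4, known for its binding to non-muscle myosin IIA and for its association with motility and metastasis, and S100P, which binds ezrin, are among the best studied members.

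S100A4 and S100P stood apart from the other members. S100A4 was about 9-fold and S100P about 18-fold higher in TET1-CD cells, whereas ANXA10 was the only other tested member with a change of at least 2-fold, and it did not pass the test. ANXA8 was also higher and S100A6, S100A13 and S100A16 were lower, each by less than 1.5-fold. The most abundant members, led by ANXA2, differed little between the groups, and 5 members, S100A7, S100A8, S100A12, S100G and ANXA13, had no count in any library.

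The promoters of the pair that rose and of S100A6, which lies near S100A4 and fell, are shown here because TET1 acts on methylated CpG. They were taken from RefSeq on GRCh38.p14, each holding 250 bases before and 50 bases after the gene's start, written 5′ to 3′ on the gene's strand with every CG in capitals. The S100A4 promoter is chr1:153545757-153546056 (minus strand), the S100P promoter is chr4:6693628-6693927 (plus strand) and the S100A6 promoter is chr1:153535942-153536241 (minus strand).
S100A4: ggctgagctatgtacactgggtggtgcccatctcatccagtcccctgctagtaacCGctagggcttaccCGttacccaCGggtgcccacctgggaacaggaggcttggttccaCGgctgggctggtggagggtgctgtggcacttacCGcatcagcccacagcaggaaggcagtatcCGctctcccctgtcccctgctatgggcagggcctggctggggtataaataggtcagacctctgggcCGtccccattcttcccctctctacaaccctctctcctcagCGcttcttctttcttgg
S100P: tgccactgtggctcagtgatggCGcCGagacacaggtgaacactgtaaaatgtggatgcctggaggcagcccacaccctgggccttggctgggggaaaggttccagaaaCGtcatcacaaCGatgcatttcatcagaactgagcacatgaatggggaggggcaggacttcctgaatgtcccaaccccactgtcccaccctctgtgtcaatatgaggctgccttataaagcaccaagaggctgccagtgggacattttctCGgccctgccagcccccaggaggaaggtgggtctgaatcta
S100A6: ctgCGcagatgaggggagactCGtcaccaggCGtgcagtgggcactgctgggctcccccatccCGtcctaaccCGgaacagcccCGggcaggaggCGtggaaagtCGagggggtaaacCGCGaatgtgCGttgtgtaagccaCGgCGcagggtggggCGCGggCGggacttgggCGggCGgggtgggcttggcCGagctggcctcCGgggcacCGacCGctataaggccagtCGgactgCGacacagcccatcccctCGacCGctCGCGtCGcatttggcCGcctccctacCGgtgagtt
S100A4 held 8 CG and S100P 5, against 31 in S100A6 and a median of 14 over all RefSeq promoters of this length. Of all promoters, 41.6% had no more CG than that of S100A4, 33.7% no more than that of S100P and 81.1% no more than that of S100A6. The letters TATAAA, searched on both strands, were in the promoters of S100A4 and S100P and in 11.5% of all promoters. Promoters were matched for 30 of the 33 members, giving 43 promoters, and 14 members held TATAAA in at least 1 of them. That is a count of members, some with several promoters, whereas the 11.5% is a share of promoters. The methylation of these promoters was not measured in the data used here.

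The transgene was seen first. TET1 had 111 and 83 estimated counts in control and 2939 and 3310 in TET1-CD libraries, a log2 fold change of 5.02 (SE 0.08, n = 2 per group, edgeR adjusted p = 4.91e-10). Library totals were 17442143 to 20295266 estimated counts, and the members together took 0.586% to 0.624% of them. The pair of control libraries was less alike than the TET1-CD pair, with a chi-square per gene of 6.41 against 2.75, and both pairs differed by more than sampling noise, which would give about 1. Of 13 urothelial and epithelial markers 6 passed the filter on low counts and 4 rose (KRT7, KRT18, KRT19 and GATA3), beside 10.0% of all tested genes. The summed count of all 13, not scaled for library size, was 40669 to 47942 in control and 46944 to 51722 in TET1-CD libraries, and these ranges overlap. KRT5 and KRT20, defining markers of basal and umbrella cells, had no count in any library, and TP63 had at most 2. Mesenchymal markers summed, also unscaled, to 125319 to 145826 counts in control and 100402 to 116226 in TET1-CD libraries. VIM and FN1 of the 4 fell, beside 9.61% of all tested genes.

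A gene passed the test where its adjusted p, computed with the quasi-likelihood F-test of edgeR for all 14573 genes with enough counts, was under 0.05. Of the 33 members 21 were tested, namely 10 S100 genes, 10 annexins and S100PBP. Of these, 3 rose in TET1-CD cells (S100P, S100A4 and ANXA8) and 3 fell (S100A6, S100A13 and S100A16), where 10.0% of all tested genes rose and 9.61% fell, 19.7% in either direction. With a fold change of at least 2 as well, 2 members rose and none fell, beside 2.72% of all genes that rose and 1.04% that fell, 3.77% together. S100P and ANXA10 passed the filter on low counts only through the TET1-CD group, so these counts do not stand for all members. In the plot of fold changes the 2 genes at the right end are separate from the other values, which run from -0.43 in S100A3 to 1.14 in ANXA10.

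**Figure D1:**
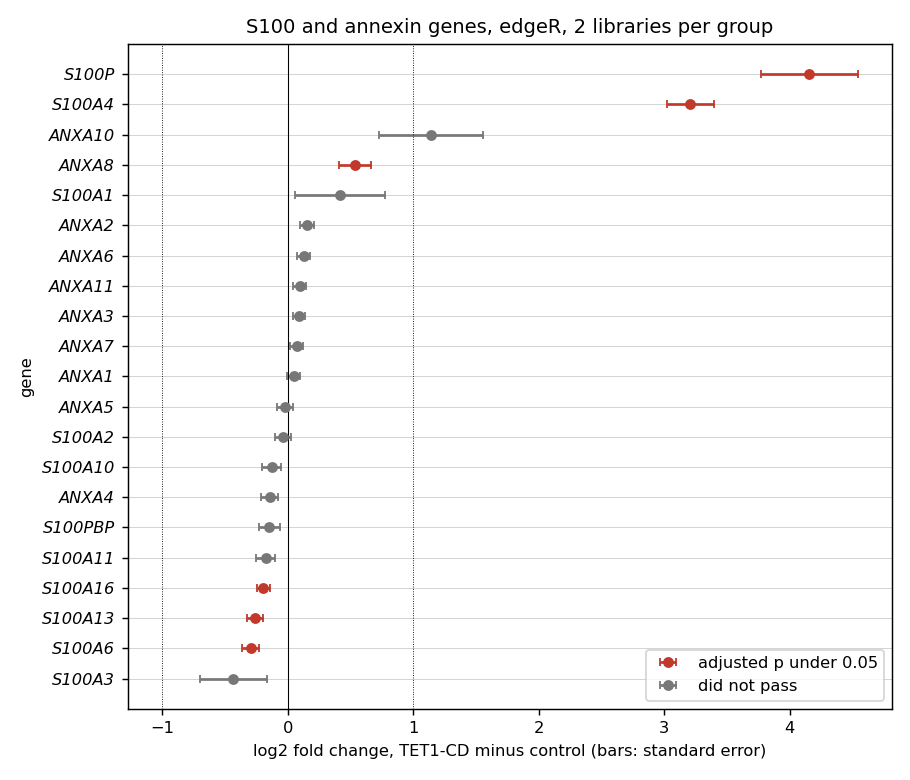
Log2 fold change of each tested member, TET1-CD minus control (x axis, points, with standard errors as bars), ordered by size. The dotted lines mark a 2-fold change, and red points had an edgeR adjusted p under 0.05. S100P (4.16) and S100A4 (3.21) lie far to the right of the rest.

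S100A4 (ENSG00000196154, GRCh37 chromosome 1, 153516089 to 153522612, minus strand) had 43 and 67 estimated counts in control and 464 and 551 in TET1-CD libraries. Both TET1-CD libraries lay far above both controls, and the control values themselves differed more, relative to their mean, than the TET1-CD values. Scaled to a common library size, the mean was 55.9 ± 23.0 (SD, n = 2) in control cells and 508 ± 21.9 with TET1-CD. This was a log2 fold change of 3.21 (SE 0.19, edgeR adjusted p = 3.98e-06) or a 9.24-fold rise. On the FPKM scale, which divides counts by transcript length and library size, S100A4 went from 3.41 and 6.18 to 44.02 and 47.2. S100A4 is also a known fibroblast gene. The 4 fibroblast markers summed to 89 and 72 counts in control and 275 and 316 in TET1-CD libraries, nearly all of them from COL1A1, which rose (log2 fold change 1.89, SE 0.13, edgeR adjusted p = 1.03e-05), whereas COL3A1, DCN and PDGFRA had at most 4 counts in any library. In bulk RNA a change in the share of some cells and a change of RNA per cell cannot be told apart.

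The rise of S100A4 was uneven over its transcripts. ENST00000368716 had 6 and 12 counts in control and 344 and 387 in TET1-CD libraries. ENST00000354332, which starts 4 bp downstream, had 2 and 4 counts in control and 59 and 106 in TET1-CD libraries. The other pair differed less, with 20 and 29 against 28 and 25 counts for ENST00000368715 and 14 and 20 against 32 and 27 for ENST00000481009. These latter transcripts start 743 and 709 bp downstream of ENST00000368716, whose first base, 153518282 on GRCh37, is the start of the RefSeq promoter printed above. Relative to the rest of the gene, ENST00000368716 rose by 1.45 on the log2 scale (edgeR diffSpliceDGE, adjusted p = 0.0481), and it was the only 1 of 91 member transcripts to pass, beside 0.647% of all transcripts so tested. Tested singly, none of 94 member transcripts passed, and its own log2 fold change of 5.32 (SE 0.44) had an edgeR adjusted p of 0.133, in a test that called 0.00231% of all transcripts higher and 0% lower. How the fragments were divided among transcripts that share most of their sequence was set by the authors' estimates.

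**Figure D2:**
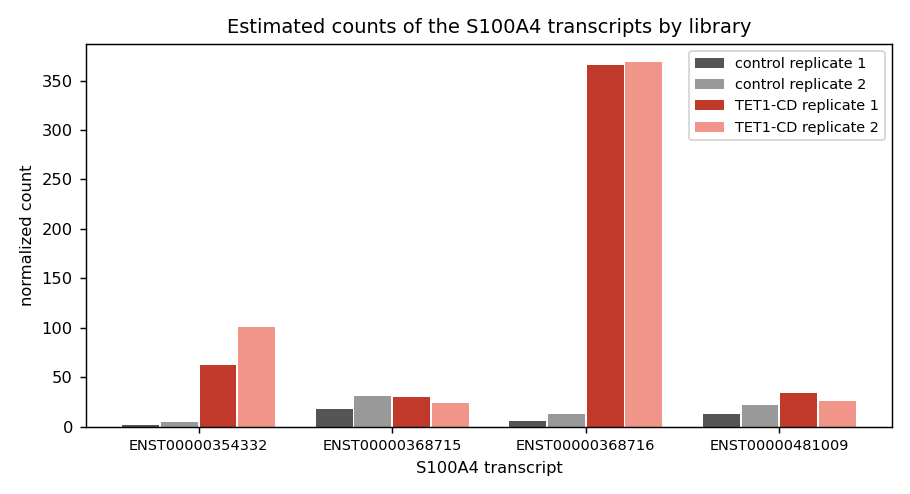
Normalized counts (y axis) of the 4 S100A4 transcripts with enough counts (x axis) in each library, 1 bar per library. The TET1-CD bars of ENST00000368716, at 366 and 369, stand far over its control bars at 5.49 and 13.0, while ENST00000368715 has bars of similar height in all libraries.

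S100P (ENSG00000163993, GRCh37 chromosome 4, 6694796 to 6698897, plus strand) was close to undetected in control cells. Control libraries held 3 and 4 estimated counts of it, TET1-CD libraries 57 and 71. The groups were far apart, but the control level rests on 7 counts in all. The mean normalized count went from 3.53 ± 1.09 (SD, n = 2) to 64.0 ± 4.91, a log2 fold change of 4.16 (SE 0.39, edgeR adjusted p = 8.59e-05) or 17.8-fold. From the summed counts alone the ratio was 18.5, with a 95% exact interval of 8.71 to 46.9 that covers counting error only. Even so the level stayed low, at 2.85 and 2.84 FPKM in TET1-CD libraries against 0.12 and 0.18 in control libraries. The tested neighbours of S100P did not pass. MRFAP1 had a log2 fold change of -0.13, AC093323.3 of -0.18, MRFAP1L1 of -0.07 and BLOC1S4 of -0.37 (edgeR adjusted p = 0.156, 0.250, 0.492 and 0.0590). S100PBP had 547 and 470 counts in control and 431 and 478 in TET1-CD libraries, a log2 fold change of -0.15 (SE 0.08, edgeR adjusted p = 0.245).

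Of the S100 genes, 16 lie on chromosome 1, and S100A10 and S100A11 are 1309946 bp from the other 14. S100A4 sits among genes that did not rise with it. S100A6, to its left on the map, had 10467 and 10306 counts in control and 7935 and 8889 in TET1-CD libraries. S100A5, between them, had 1 and 7 counts in control and 0 and 1 in TET1-CD libraries and was not tested. S100A3, a gene of the hair shaft that lies inside the span of the longest S100A4 transcript on the same strand, had 105 and 137 counts in control and 61 and 119 in TET1-CD libraries, and these ranges overlap. Its log2 fold change was -0.43 (SE 0.27, edgeR adjusted p = 0.291), and S100A2, the next gene, was at -0.04 (SE 0.07, adjusted p = 0.724). Reads in the shared 2044 bp of S100A3 and S100A4 could have been given to either gene. The inflammatory group between S100A9 and S100A7, with S100A8, the partner of S100A9 in calprotectin, had at most 1 count in any library. Genes of the epidermal differentiation complex, in which the cluster lies, were also low, with a summed count of at most 8 in a library, 34 of 36 at 0 in all libraries and none tested, and the fused-type S100 genes such as FLG summed to 5 to 14 counts per library.

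**Figure D3:**
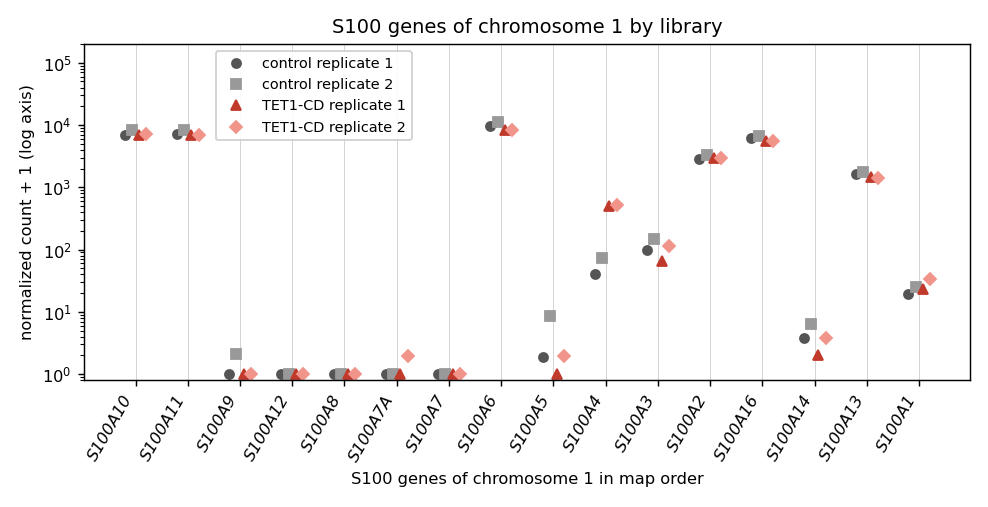
Normalized count plus 1 (y axis, log scale) of the 16 S100 genes of chromosome 1 in map order (x axis), 1 symbol per library. S100A4 is the gene at which the TET1-CD symbols lie clearly above the control symbols, while the TET1-CD symbols of S100A6 lie below the controls and those of S100A3 overlap with them.

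Among the abundant S100 genes the differences were small and mostly downward. S100A6, a partner of ANXA11 that is raised in proliferating cells, had a normalized count of 10366 ± 1032 (SD, n = 2) in control and 8436 ± 15.4 in TET1-CD cells, which is 1.23-fold lower (log2 fold change -0.30, SE 0.07, edgeR adjusted p = 0.0137). S100A13, which takes part in the release of FGF1, had 1785 and 1663 counts in control and 1363 and 1484 in TET1-CD libraries, with a log2 fold change of -0.26 (SE 0.06, edgeR adjusted p = 0.0168). S100A16, a widely expressed member, had 6783 and 6161 counts in control and 5296 and 5913 in TET1-CD libraries, with a log2 fold change of -0.20 (SE 0.05, edgeR adjusted p = 0.0300). For all 3 genes the TET1-CD libraries lay below both controls once scaled, as they did for 30.2% of all tested genes. With TET1-CD replicate 1 or 2 left out, the log2 fold changes were -0.29 and -0.30 for S100A6, -0.28 and -0.24 for S100A13 and -0.20 and -0.19 for S100A16. In those fits the control pair, the less alike, gives the spread for both groups, and none of the 3 passed, with edgeR adjusted p of 0.168 and 0.127 for S100A6, 0.141 and 0.191 for S100A13 and 0.295 and 0.269 for S100A16. S100A6 moved to -0.40 without control replicate 1 and to -0.19 without control replicate 2, in fits whose spread comes from the TET1-CD pair alone. S100A13 overlaps S100A1 on the opposite strand over 4112 bp, and no source used here states that strand was used in counting. Of the 75-base stretches of S100A13 transcripts, 16.3% are also in another gene (ENSG00000271853).

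Control replicate 2 had higher normalized counts of several S100 genes than control replicate 1, and the size of these differences depended on it. S100A10, the partner of ANXA2 that no longer needs calcium, had 7560 and 7774 counts in control and 6486 and 7494 in TET1-CD libraries, a log2 fold change of -0.13 (SE 0.08, edgeR adjusted p = 0.285). After scaling, its control values were 6960 and 8369, with the TET1-CD values of 6887 and 7121 on either side of the lower control. S100A11, the partner of ANXA1, had 7691 and 7853 counts in control and 6475 and 7245 in TET1-CD libraries, a log2 fold change of -0.17 (SE 0.08, adjusted p = 0.139). S100A2, a nuclear protein of epithelial cells, had 3120 and 3025 counts in control and 2816 and 3126 in TET1-CD libraries. With control replicate 1 left out, the control group is 1 library and the TET1-CD pair, the more alike, gives the spread for both groups. In that fit the log2 fold changes of S100A2, S100A3, S100A10 and S100A11 were -0.13, -0.72, -0.26 and -0.30. With control replicate 2 left out instead, they were 0.05, -0.11, 0.007 and -0.04. The S100 genes together took 0.185% and 0.212% of the counts in control and 0.177% and 0.179% in TET1-CD libraries. S100A1, the S100 protein of heart muscle, had 20 and 22 counts in control and 21 and 35 in TET1-CD libraries, a log2 fold change of 0.42 (SE 0.36, adjusted p = 0.461).

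Of 10 annexins tested, 8 had a positive and 2 a negative log2 fold change, with a median of 0.09, but only ANXA8 passed, and the median over all tested genes was 0.00095. Of the 10 S100 genes tested, 3 were positive and 7 negative, with a median of -0.15. Annexins took 0.398% and 0.409% of the counts in control and 0.431% and 0.439% in TET1-CD libraries. Both TET1-CD libraries lay above both controls after scaling for 10 of the 21 tested members and below them for 6, where 30.8% of all tested genes lay above and 30.2% below. In ANXA5, S100A1, S100A2, S100A3 and S100A10 the groups overlapped.

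ANXA8, an annexin of stratified epithelia, was the exception. It had 494 and 311 counts in control and 548 and 597 in TET1-CD libraries, with a mean normalized count of 395 ± 84.8 (SD, n = 2) against 575 ± 10.3. The control libraries differed by more than the TET1-CD libraries, and the log2 fold change was 0.53 (SE 0.13, edgeR adjusted p = 0.0159), a 1.45-fold rise. With TET1-CD replicate 1 or 2 left out it was 0.52 and 0.56 and did not pass (edgeR adjusted p = 0.107 and 0.0601), in fits whose spread comes from the control pair alone, and it was 0.77 without control replicate 1 and 0.33 without control replicate 2. ANXA8 (ENSG00000165390, GRCh37 chromosome 10, 48255253 to 48279200, plus strand) has close copies on the same chromosome, so that its reads could have been divided among them. Of the 75-base stretches of ANXA8L1 transcripts, 88.7% are also in ANXA8. The copies rose too, ANXA8L1 from 232 and 242 to 377 and 416 counts and ANXA8L2 from 196 and 176 to 308 and 391 (log2 fold change 0.75 and 0.92, edgeR adjusted p = 0.00177 and 4.92e-04). Summed over the copies, the counts were 922 and 729 in control and 1233 and 1404 in TET1-CD libraries, a log2 fold change of 0.69 (SE 0.06, edgeR adjusted p = 8.41e-05).

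ANXA10, an annexin found in stomach and urothelium, was the only other tested member with a fold change of at least 2. It had 10 and 10 counts in control and 23 and 21 in TET1-CD libraries. After scaling, both TET1-CD libraries lay above both controls, as they did for 30.8% of all tested genes. ANXA10 passed the filter on low counts only through the TET1-CD group. Its log2 fold change of 1.14 (SE 0.41, edgeR adjusted p = 0.0819) did not pass, although it did when 10 counts were required in every library (1.15, adjusted p = 0.0485). ANXA9 went the other way, from 7 and 4 counts to 0 and 0, at least 1.78-fold lower when 3 counts per library are taken as the limit that a count of 0 allows. It was too low to pass the filter, and without a filter its log2 fold change of -5.48 did not pass (edgeR adjusted p = 0.0545). Of the remaining untested members, S100A14 had 3 and 5 counts in control and 1 and 3 in TET1-CD libraries, S100Z had 0 and 0 against 1 and 3, and S100A7A, S100A9 and S100B had at most 1 count in a library.

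ANXA2 was the most abundant member and ranked 34 of 57879 genes by mean FPKM. ANXA2, which with S100A10 forms a complex at the inner face of the plasma membrane, was at 1185 and 1213 FPKM in control and 1320 and 1369 in TET1-CD libraries. Its counts were 34246 and 30160 in control and 32848 and 38045 in TET1-CD libraries, and its log2 fold change of 0.15 (SE 0.05, edgeR adjusted p = 0.0833) did not pass, although it did with limma-voom (adjusted p = 0.0440). Reads shared with ANXA2P2 are uncertain. Of the 75-base stretches of ANXA2P2, 43.9% are in ANXA2, whereas 3.1% of those of ANXA2 are in ANXA2P2. The sum over ANXA2 and its pseudogenes also had a log2 fold change of 0.15 (edgeR adjusted p = 0.0830). The ratio of ANXA2 to S100A10 FPKM was 3.21 and 2.59 in control and 3.47 and 3.52 in TET1-CD libraries. The next members by mean FPKM were S100A6 (rank 84), S100A11 (98), ANXA5 (173), S100A10 (174), ANXA1 (222), S100A16 (224) and S100A2 (319).

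**Figure D4:**
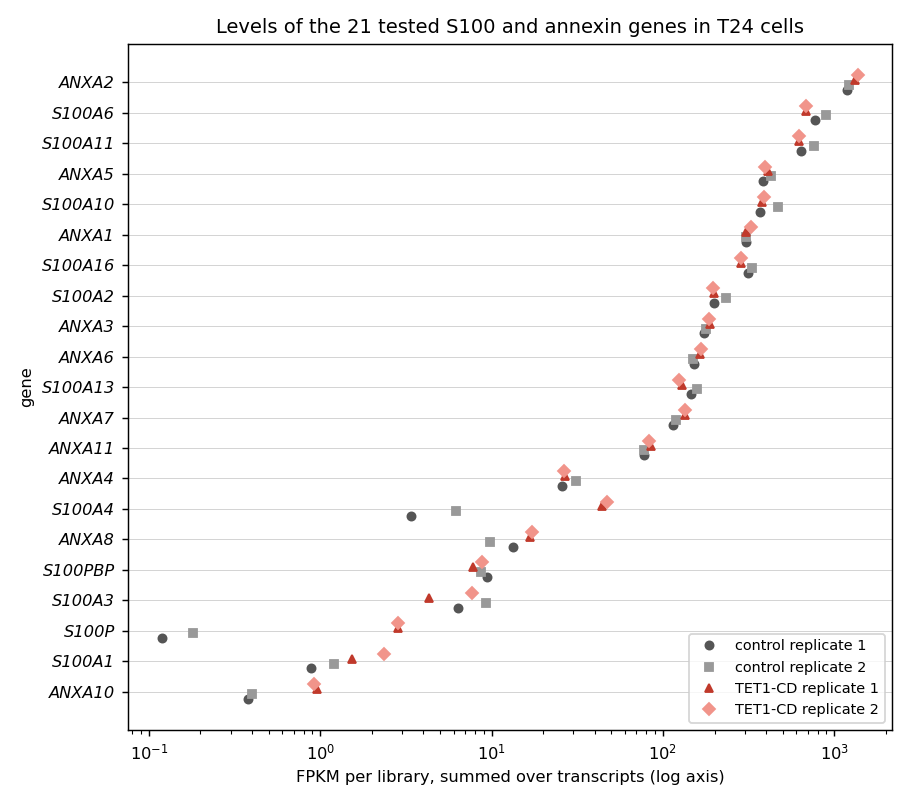
FPKM of the 21 tested members (y axis, ordered by mean level) in each library (x axis, log scale), 1 symbol per library. The members span from 0.12 FPKM for S100P in control replicate 1 to 1369 for ANXA2 in TET1-CD replicate 2. S100A4 and S100P are the genes whose control and TET1-CD symbols are widely separated.

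ANXA1, the glucocorticoid-induced annexin that dampens inflammation, had 9222 and 7946 counts in control and 8065 and 9523 in TET1-CD libraries, a log2 fold change of 0.05 (SE 0.05, edgeR adjusted p = 0.582). ANXA5, whose binding to phosphatidylserine is used to stain dying cells, had 13652 and 13008 against 12566 and 13505 counts, a log2 fold change of -0.02 (SE 0.06, adjusted p = 0.849). Neither gene passed. The other annexins tested had log2 fold changes from -0.14 in ANXA4 to 0.13 in ANXA6, which carries a duplicated core, with ANXA3, ANXA7 and ANXA11 between 0.07 and 0.10, and edgeR adjusted p from 0.108 to 0.365.

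Partners and receptors of both families were taken as a list of 37 genes, of which 30 were tested. Of these 7 rose (23.3%) and 3 fell (10.0%), none by 2-fold, beside 10.0% and 9.61% of all tested genes, and the median log2 fold change was 0.01. The smallest p-values were those of MDM2, the ubiquitin ligase of p53 that binds S100 proteins, PLAT, the plasminogen activator for which ANXA2 is a surface receptor, and AHNAK2, a relative of the ANXA2 and S100A10 partner AHNAK. MDM2 had 3904 and 2969 counts in control and 1952 and 2077 in TET1-CD libraries (log2 fold change -0.75, SE 0.07, edgeR adjusted p = 6.59e-05). PLAT rose from 1872 and 1577 to 2483 and 3145 counts (0.72, SE 0.07, edgeR adjusted p = 9.19e-05), and AHNAK2 fell from 2875 and 2234 to 1599 and 1921 (-0.52, SE 0.07, edgeR adjusted p = 6.45e-04). The receptors were named for their role. AGER had 13 and 12 counts in control and 8 and 2 in TET1-CD libraries and TLR4 had 128 and 118 against 100 and 142, with edgeR adjusted p of 0.209 and 0.961. Of a list of 35 other calcium-binding or membrane-associated proteins 25 were tested. Among them 1 rose (4.0%) and 6 fell (24%), beside the same shares of all tested genes, with a median of -0.07. CAV1, the coat protein of caveolae, fell from 12650 and 11566 to 7614 and 8808 counts (-0.55, SE 0.06, edgeR adjusted p = 1.55e-04). MYOF, a ferlin of membrane repair, rose from 10272 and 7899 to 10908 and 12268 (0.37, SE 0.06, edgeR adjusted p = 0.00264), and PLSCR1, a phospholipid scramblase, fell from 2604 and 2554 to 1895 and 1987 (-0.40, SE 0.07, edgeR adjusted p = 0.00436).

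Several S100 genes are markers of leukocytes, so leukocyte markers were set beside them. The 6 genes summed to 534 and 623 counts in control and 425 and 472 in TET1-CD libraries, most of them from CD68. ITGAM, with 22 and 29 counts in control and 3 and 8 in TET1-CD libraries, was the 1 of 3 tested leukocyte markers that passed (log2 fold change -2.19, SE 0.52, edgeR adjusted p = 0.0165). It passed the filter on low counts only through the control group, and 9.61% of all tested genes fell. PTPRC and CD3E had at most 2 counts in any library. Endothelial markers summed to 12 to 22 counts per library. The part of these markers in the differences above was not tested.

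Promoter CpG counts differed widely between members. ANXA1 and ANXA10 held no CG, ANXA4 held 44, ANXA5 36 and ANXA2 and S100A10 32 each. The 5 members that passed and have a promoter lay on both sides of the median of 14, with S100A4, S100P and S100A16 under it, S100A6 over it and the 3 promoters of S100A13 on either side, as the plot of CpG count and fold change shows. No promoter of ANXA8 was used. The AP-1 letters TGANTCA, which read the same on both strands, were in 7.71% of all promoters and in those of 6 members, ANXA2, S100A12, S100A2, S100A3, S100A5 and S100PBP, and not in those of S100A4 or S100P.

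**Figure D5:**
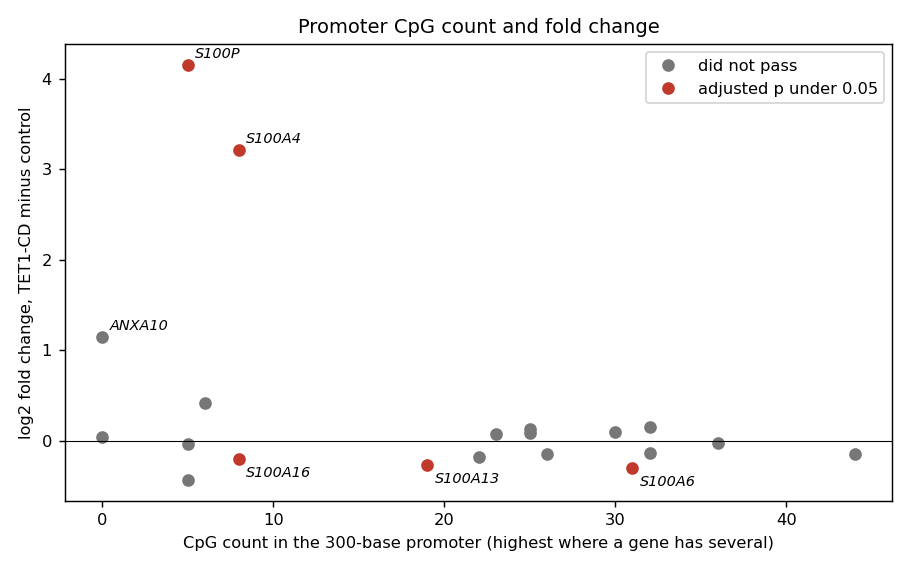
Number of CG in the 300-base RefSeq promoter (x axis, the highest where a gene has several) and log2 fold change, TET1-CD minus control (y axis), for each tested member with a promoter, with genes of an edgeR adjusted p under 0.05 in red. S100P and S100A4 lie at 5 and 8 CG, and at or between these counts S100A2, S100A3 and S100A16 have values below 0 and S100A1 one of 0.42.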

How the data were processed

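Poly(A) RNA of T24 cells was sequenced in 2 control and 2 TET1-CD libraries. The authors' deposited files give an expected count, an estimate that may be a fraction, and an FPKM value for each transcript. The submitters' processing notes list cutadapt 1.9.1, HISAT2 2.0.1, HTSeq 0.6.1, DESeq2 and hg19, and the tool behind the estimated counts is not given in the sources used here. The members and lists were chosen with earlier results of these data known. Counts of all transcripts of a GeneID were added and rounded. Groups were compared with edgeR 4.0.16 in R 4.3.3 (glmQLFit and glmQLFTest, TMM, filterByExpr), with Benjamini-Hochberg adjustment over all genes. Standard errors were obtained from the log2 fold change and its F statistic (log2 fold change over root F). Normalized counts were scaled to the geometric mean of the effective library sizes. The test was tested on simulated data first. Genes were named if their adjusted p was under 0.05, if their fold change was at least 2 or if they were among the 8 members with the highest mean FPKM, and the 3 genes of smallest p of each partner list. Single transcripts and the sums over copies were added after seeing the data. Alternatives were DESeq2 1.42.0, limma 3.58.1 (voom), other scaling, other filters, a replicate block, the ratio of mean FPKM and leaving out each library. Intervals cover counting error only. Promoters are from RefSeq (GRCh38.p14), and all other coordinates are GRCh37 (hg19). No promoter of ANXA8, ANXA13 or S100B was used.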

Additional observations from a re-analysis of the deposited data

How the results depend on the processing

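S100A4 and S100P passed under each alternative that could test them, with log2 fold changes of 2.81 to 3.68 and 3.85 to 4.47, and a minimum of 10 counts in every library removed S100P and let ANXA10 pass. The number of members that rose was 2 to 4 and the number that fell was 0 to 7 over the fits that left out 1 library. Leaving out TET1-CD replicate 1 or 2 gave 0 that fell, and leaving out control replicate 1 gave 7, but in such a fit 1 group is a single library assumed to vary like the other group, and the control pair was less alike than the TET1-CD pair. With the replicate number as a block, 4 members rose and 3 fell, the 4th being ANXA2 (adjusted p = 0.0472). Same-numbered libraries did not deviate together over the tested genes (correlation 0.007). With 1 pair of libraries per group, that value cannot show whether they shared a culture or a run, and the sources used here do not say. Without a filter, 4 rose and 4 fell. With limma-voom 4 rose and 3 fell. DESeq2, other scaling and summed copies left both counts at 3. No member that passed in the edgeR test of all libraries changed direction, whereas S100A2, S100A10 and ANXA5, which did not pass there, did. The ratio of mean FPKM gave log2 values of 0.21 for ANXA7, 0.90 for S100A1 and -0.13 for S100A2, further from 0 than the fitted values, and the cause was not tested. Over all genes, 549 passed at 2-fold, 384 with DESeq2, 332 with the minimum of 10 counts and 322 and 364 without TET1-CD replicate 1 or 2. ANXA8, S100A6, S100A13 and S100A16 lost their call without either TET1-CD library, at log2 fold changes close to those of all libraries. Members with some counts but under 10 in all libraries were fitted only without a filter, and none of them passed there.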
